A study of Mus musculus with 12 samples.

Results

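The cadherins and protocadherins of 3 mouse spindloid mammary tumour cell lines were followed through inhibition of the receptor kinases Met and FGFR. Members were the genes of the count table whose symbol is Cdh with a number, Pcdh with a number, or Pcdha, Pcdhb or Pcdhg, and whose counts summed to at least 30 over the 12 libraries. The table held 93 such symbols among 55573 genes, and 42 of them reached 30 counts. Of these 42 members, 31 passed the filter on low counts and were tested, among 13836 genes tested in all. The lines A1005, A1129 and A1471 carry the genotype MMTV-Metmt;Trp53fl/+;Cre, in which the mammary tumour virus promoter drives an activated Met transgene and the Cre recombinase in mammary epithelium, with 1 conditional and 1 normal allele of Trp53. Each line came from a separate tumour, so a line is 1 biological replicate and also 1 model, and all libraries share this genotype. Every line was cultured as tumourspheres in serum-free medium with EGF, bFGF and insulin and received DMSO as vehicle, 1 µM of the Met kinase inhibitor Crizotinib, 1 µM of the FGFR kinase inhibitor PD173074, or both (the combination), each for 24 h (n = 3 lines per treatment).

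Cadherins are calcium-dependent adhesion proteins of the cell surface. Classical cadherins bind the same cadherin on the next cell and are tied to actin through beta-, alpha- and p120-catenin, and loss of E-cadherin (Cdh1) with gain of N-cadherin (Cdh2) is a textbook sign of epithelial-mesenchymal transition (EMT). Protocadherins are a larger related family, best known from neurons. Genes of the non-clustered kind stand alone in the genome, whereas the alpha, beta and gamma clusters lie in a row on mouse chromosome 18. In the alpha and gamma clusters each gene has its own large variable exon, with its own promoter, spliced to constant exons shared by its whole cluster, and beta genes have no such constant exons. Neurons choose few of the clustered promoters per cell, with help of CTCF and cohesin, and so acquire a surface identity.

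Libraries held 13031492 to 17750476 counts. Levels are given below as TMM-normalized CPM (counts divided by the scaled library size), with values of a treatment listed in the order A1005, A1129, A1471. Of the 8 epithelial markers checked, Krt5 and Cldn7 were at 0 in all 12 libraries, and the 8 summed to 7.09 to 86.6 CPM. The 6 mesenchymal markers, among them Vim, summed to 3528 to 9856 CPM. Epcam stayed at or under 2.08 CPM, while the keratin Krt18 had 4.0 to 49.4 CPM, Krt8 1.12 to 34.0 CPM and Krt19 6.11 to 44.0 CPM in A1005 and at most 0.144 in the other lines. Vim had 1903 to 3204 CPM in all lines, whereas the mesenchymal factor Prrx1 had 150 to 308 CPM in A1129 and A1471 and 0.156 to 0.445 in A1005. Epithelial and mesenchymal markers were thus both present, unevenly between lines. Endothelial markers summed to at most 0.752 CPM, and 3 of 4 skeletal muscle markers had no count.

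Neither of the cadherins that define EMT was expressed at a level that could be compared. Cdh2, encoding N-cadherin (chr18:16588877-16809246, GRCm38, minus strand), had 18 counts in all, below the minimum of 30. These were 1, 0 and 2 counts with DMSO, 0, 0 and 5 with Crizotinib, 2, 0 and 2 with PD173074 and 0, 0 and 6 with the combination. Cdh1, encoding E-cadherin (chr8:106603351-106670246, plus strand), had 19 counts, of which 14 lay in the combination libraries (1, 9 and 4) and 2 in the DMSO libraries (0, 2 and 0). Crizotinib gave 0, 1 and 0 counts of Cdh1 and PD173074 gave 0, 2 and 0. Cdh11, a type II cadherin typical of mesenchymal cells, had 0 counts in all 12 libraries, which allows a level of up to 0.0168 CPM. No direction is drawn for these genes, in any comparison, at this depth. Such limits cover counting error only, because PCR copies were not marked by molecular identifiers.

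The classical families were nearly empty. Of 5 type I cadherins only Cdh15 (M-cadherin, of muscle) reached 30 counts, and it failed the filter. Of 13 type II cadherins 7 had no count and Cdh24 alone was a member. Of the other Cdh genes, Cdh13, Cdh17 and Cdh23 were members. The alpha cluster had 2 counts over 14 genes, whereas the 22 beta genes had 3954 counts and the 22 gamma genes 40999. Of the 12 non-clustered protocadherins 9 were members. In all, 30 of the 42 members lie on chromosome 18. Just outside the minimum lay Pcdhga3 with 28 counts, Pcdhb12 with 27 and Pcdhgb5 with 26, and just inside it Pcdhga11 with 31, Pcdhb4 with 37 and Pcdhb10 with 38.

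Per kilobase of exon that no other gene shares, Pcdhgc3 had the highest level of all members in the DMSO libraries, at 59.0 ± 35.4 CPM per kb (SD, n = 3). Next came Cdh13 at 7.96 ± 5.18, Pcdh18 at 2.73 ± 2.17, Pcdh1 at 2.27 ± 3.13 and Pcdhgb6 at 1.99 ± 2.1 CPM per kb. The SDs of these last 4 overlapped, so their order is not separated by the spread between lines. Pcdhgc3 is a C-type gamma gene, a kind used by many cell types. It made up 80.3% to 94.3% of all gamma counts in the 12 libraries. Reads on the constant exons were not counted for every gamma gene, since several gamma genes were at or near 0 in libraries where Pcdhgc3 was the most counted gene of the cluster. How the counting treated such shared exons and strand is not stated, so gamma values are uncertain to that extent.

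In the combination, protocadherins of the beta cluster, Pcdh18, Pcdh19 and Cdh13 were higher than with DMSO. The unpaired fit of edgeR's quasi-likelihood test (the study's methods state an unpaired analysis) called 4 of 31 tested members higher and 0 lower at an adjusted p of 0.05, namely Pcdhb9, Pcdhb16, Pcdhb17 and Pcdhga6. Among all genes tested it called 6.1% higher and 8.28% lower. With a block for the cell line, so that treatments are compared within lines, 22 members were called higher and 0 lower, against 28.6% and 26.2% of all genes. DESeq2, unpaired, called 9 of the 41 members it tested higher, all 9 among the 31, against 9.92% of its 14307 genes with an adjusted p. The unpaired edgeR fit called 0 members without A1129 and 0 without A1471, where it called 0.638% and 0.0856% of all genes higher. Without A1005 it called 4, against 6.48%, and these were Pcdhb16, Pcdhga6, Pcdh10 and Pcdh19. Pcdhb9 and Pcdhb17 were thus called in no unpaired edgeR fit that left out a line. The blocked fit called 13 without A1129, 15 without A1471 and 20 without A1005, against 20.8%, 19.3% and 25.8% of all genes higher. Higher than DMSO in each of the 3 lines were 23 of the 31, against 34.0% of all genes, and 0 were lower in each. The median log2 fold change of the tested members was 1.32, beside 0.02 over all genes tested.

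The filter itself favours genes that are high in some treatment. Of the 31 tested members, 26 reached the filter's minimum without any combination library, and 18 of these were called with the block and 3 without it. Of the 5 that needed the combination libraries, Pcdhb7, Pcdhb9, Pcdh10 and Pcdhgb2 were called with the block and Pcdhb15 was not. Over all 42 members, tested or not, mean CPM was higher in the combination for 40 and lower for Cdh23 and Pcdh15. The minimum count for membership was itself summed over all libraries, those of the combination included. This count of 40 is therefore not free of selection either, and no share of all genes is given beside it. In bulk RNA, more cells of a kind and more RNA per cell cannot be told apart.

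**Figure D1:**
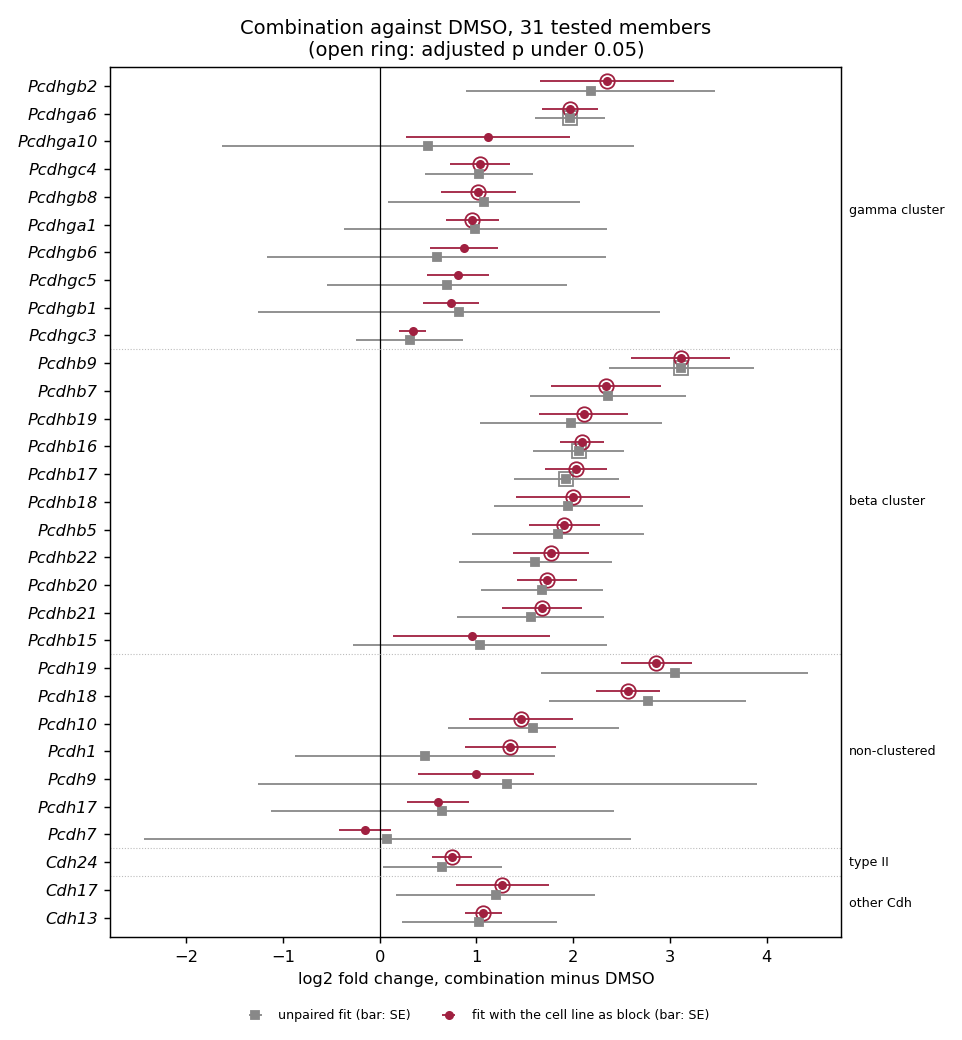
The log2 fold change of each of the 31 tested members in the combination against DMSO (x axis), by edgeR without a block (grey squares) and with a block for the cell line (red circles), with standard errors as bars and open outlines where the adjusted p was under 0.05. Red outlines mark 22 members and grey outlines 4, all to the right of 0.

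Of 7 tested non-clustered protocadherins, 4 were called with the block, all higher, and 0 without it, against 28.6% and 6.1% of all genes called higher. Pcdh18 encodes a delta-2 protocadherin, a group with conserved cytoplasmic motifs that link to actin regulators. It lies at chr3:49743296-49757325 (GRCm38) on the minus strand. Pcdh18 stood at 7.49, 8.35 and 28.1 CPM with DMSO, 7.93, 12.5 and 28.0 with Crizotinib, 12.2, 19.4 and 85.1 with PD173074, and 18.8, 80.7 and 200 CPM with the combination. Every line was highest in the combination, but the A1005 value there lay below the A1471 value with DMSO, so the groups overlap across lines. The log2 fold change was 2.57 ± 0.33 (SE) with the line as a block (edgeR, adjusted p = 0.000149). Without the block the adjusted p was 0.103, and DESeq2 gave 0.0131.

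Pcdh19, the X-linked delta-2 protocadherin whose loss causes an epilepsy, lies at chrX:133582860-133688987 on the minus strand. Its levels were 0.703, 4.08 and 8.36 CPM with DMSO and 1.16, 5.02 and 7.05 with Crizotinib. With PD173074 they were 2.18, 23.4 and 40.4, and with the combination 1.72, 44.9 and 62.2 CPM. A1129 and A1471 were higher with PD173074 and highest with the combination, while A1005 was lower than both lines in every treatment. The log2 fold change in the combination was 2.86 ± 0.37 with the block (edgeR, adjusted p = 0.000164) and 3.05 ± 1.38 without it (adjusted p = 0.175). DESeq2 gave an adjusted p of 0.0407. Without A1005 the unpaired adjusted p of edgeR was 0.0133, and without A1129 and A1471 it was 0.551 and 0.441.

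Pcdh1, a delta-1 protocadherin of airway and other epithelia, differed between lines in its response. With DMSO it stood at 51.8, 3.22 and 4.97 CPM, with Crizotinib at 64.0, 2.25 and 6.54, with PD173074 at 40.9, 6.44 and 8.83, and with the combination at 48.9, 15.6 and 18.6 CPM. A1129 and A1471 were higher in the combination and A1005, the line with the highest level, was not. With the block the log2 fold change was 1.35 ± 0.47 (edgeR, adjusted p = 0.0315). Leaving out A1129 or A1471 ended this call (adjusted p = 0.186 and 0.238), and without A1005 it was 0.0013, all by edgeR with the block.

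Pcdh10, another delta-2 member, was low throughout, at 0.312, 0.329 and 0.414 CPM with DMSO, 0.0683, 0.396 and 0.359 with Crizotinib, 0.302, 0.787 and 0.569 with PD173074 and 0.111, 1.63 and 1.51 with the combination. It was higher in A1129 and A1471 and lower in A1005. EdgeR with the block put the log2 fold change at 1.46 ± 0.54 (adjusted p = 0.0409), which did not hold without A1471 (adjusted p = 0.271). Without A1129 Pcdh10 was not tested. Pcdh10 passed the filter only through the combination libraries, so its p is not free of that selection.

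Promoter letters are shown for Pcdh18, Pcdh19 and Pcdh10, 3 called non-clustered protocadherins with such a window, so that the sequence from which these transcripts start can be read beside their values. RefSeq windows (GRCm38.p6) matched 10 of the 42 members. Each line gives the stretch from 250 to 10 bases before the RefSeq start, 5′ to 3′ on the gene's strand, with matches to CCAAT and to GGGCGG (the CCAAT box and the GC box, either strand) in capitals.
Pcdh18 (chr3:49757326-49757566, minus strand): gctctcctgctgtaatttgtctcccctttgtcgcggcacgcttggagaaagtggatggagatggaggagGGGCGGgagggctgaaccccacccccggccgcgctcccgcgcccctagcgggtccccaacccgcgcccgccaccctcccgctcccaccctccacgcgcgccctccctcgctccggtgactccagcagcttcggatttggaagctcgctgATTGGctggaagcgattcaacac
Pcdh19 (chrX:133689003-133689243, minus strand): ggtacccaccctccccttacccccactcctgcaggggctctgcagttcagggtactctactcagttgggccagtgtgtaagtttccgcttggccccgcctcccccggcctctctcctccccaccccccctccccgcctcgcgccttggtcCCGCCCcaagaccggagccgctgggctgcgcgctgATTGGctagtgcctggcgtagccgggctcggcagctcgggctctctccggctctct
Pcdh10 (chr3:45378148-45378388, plus strand): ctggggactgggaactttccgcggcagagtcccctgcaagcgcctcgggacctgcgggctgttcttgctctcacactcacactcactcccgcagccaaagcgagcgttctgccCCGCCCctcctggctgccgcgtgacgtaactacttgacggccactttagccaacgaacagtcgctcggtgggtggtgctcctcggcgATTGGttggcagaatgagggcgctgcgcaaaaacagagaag

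All 3 windows held 1 CCAAT box, on the strand opposite to the gene, with its first base 32, 65 and 50 bases before the start in Pcdh18, Pcdh19 and Pcdh10. A CCAAT box on either strand was present in 33.1% and a GC box in 31.4% of 32851 promoter windows of this length. Both motifs were chosen after the letters had been read, and a match is a description of the sequence only. The letters CACCTG (the E-box read by Snail and Zeb factors), TGAGTCA (read by AP-1) and TGTTTAC (read by forkhead factors) were searched on both strands and were in none of the 3 windows. They were in 16.7%, 4.35% and 3.07% of all windows.

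**Figure D2:**
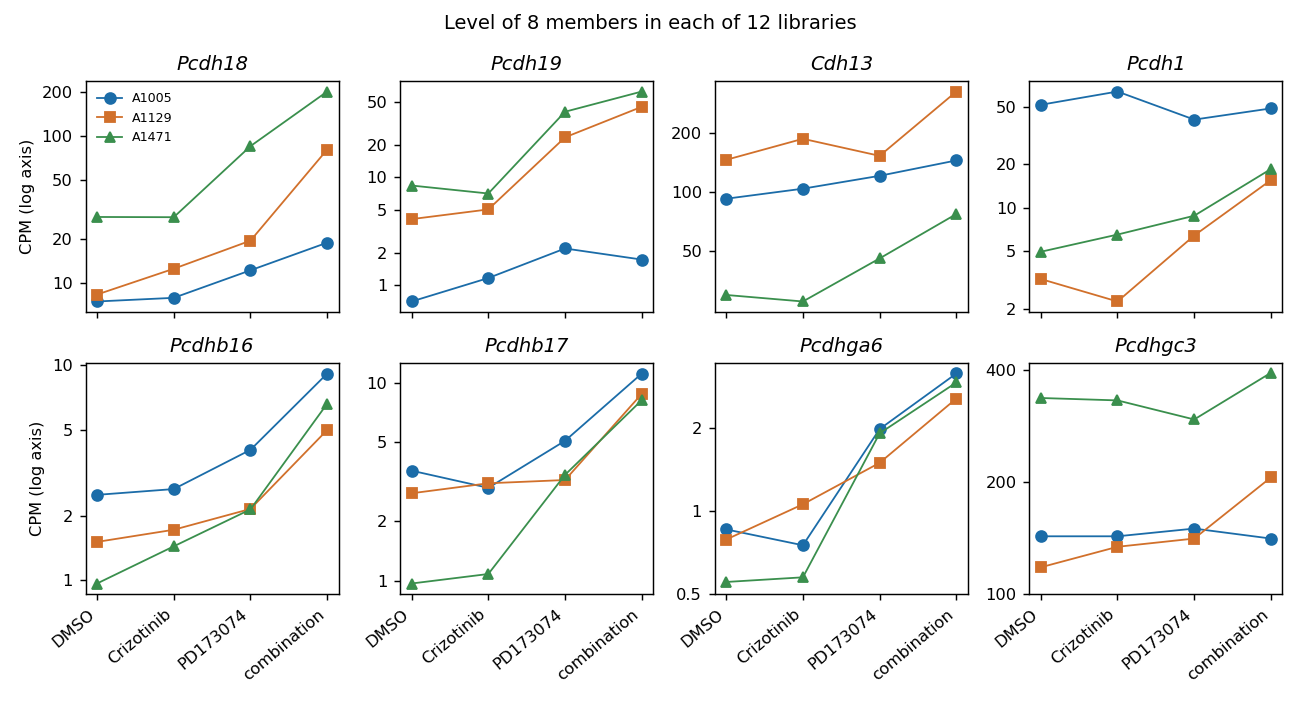
Level in CPM (log axis) of 8 members in each of the 12 libraries, by treatment (x axis) and cell line (colour and marker). Lines join the libraries of 1 cell line, and Pcdh18, Cdh13, Pcdhb16, Pcdhb17 and Pcdhga6 were higher in the combination than with DMSO in each line, while Pcdhgc3 and Pcdh1 in A1005 were not.

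Among the Cdh genes the most abundant was Cdh13, encoding T-cadherin, a cadherin held by a lipid anchor without a cytoplasmic tail (chr8:118283733-119324921). Its levels were 92.4, 146 and 29.8 CPM with DMSO, 104, 187 and 27.6 with Crizotinib, 121, 153 and 45.8 with PD173074 and 145, 326 and 77.2 with the combination. Each line was highest in the combination, and the lines kept the order A1129, A1005, A1471 in every treatment. The log2 fold change was 1.07 ± 0.19 with the block (edgeR, adjusted p = 0.000944) and 1.03 ± 0.8 without it (adjusted p = 0.449).

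Cdh24 is a type II cadherin that binds catenins. It stood at 1.48, 3.81 and 6.15 CPM with DMSO, 1.98, 3.57 and 6.47 with Crizotinib, 2.96, 5.94 and 6.98 with PD173074, and 3.61, 6.14 and 8.3 with the combination. Its log2 fold change of 0.75 ± 0.21 with the block (edgeR, adjusted p = 0.0117) was higher in all 3 lines but smaller than the distance between A1005 and A1471. Without A1005 or A1129 the call was lost (edgeR with the block, adjusted p = 0.0844 and 0.0616). Cdh17, the liver-intestine cadherin, read 0.859, 0.987 and 0.0691 CPM with DMSO, 1.5, 0.924 and 0.0719 with Crizotinib, 1.81, 1.0 and 0.569 with PD173074 and 1.56, 2.26 and 0.604 with the combination. Its change of 1.27 ± 0.48 (log2, edgeR with the block, adjusted p = 0.0461) was not called in any fit that left out a line.

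Beta genes were the largest called group. They encode protocadherins from 1 large exon each, with a short cytoplasmic tail. Summed over its 22 genes, the cluster stood at 17.6, 12.4 and 4.97 CPM with DMSO, 15, 15.8 and 5.25 with Crizotinib, 22.2, 16.9 and 17 with PD173074 and 50.5, 42.2 and 38.6 CPM with the combination. The lowest combination library thus lay above the highest of the other 9. Against DMSO of the same line the sum was 2.86, 3.39 and 7.75 times as high in the combination, 0.848, 1.27 and 1.06 times with Crizotinib and 1.26, 1.36 and 3.42 times with PD173074. A1471, the lowest line with DMSO, had the highest ratio. The largest gene gave 19.1% to 27.4% of the sum in every library. Of the 11 beta genes tested, 3 were called in the unpaired fit and 10 with the block, all higher, against 6.1% and 28.6% of all genes. Pcdhb9, called by both fits, and Pcdhb7, called with the block, passed the filter only through the combination libraries.

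**Figure D3:**
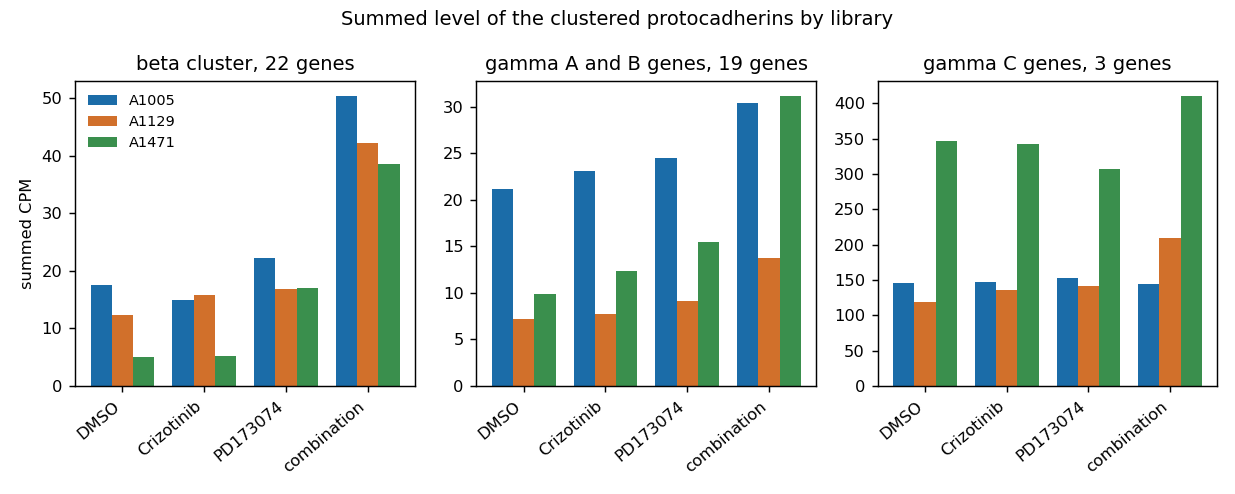
Summed CPM of the beta cluster (left), the gamma A and B genes (middle) and the gamma C genes (right) in each library, as bars by treatment and cell line. The beta sum was 38.6 to 50.5 CPM in the combination and 4.97 to 22.2 CPM in the other libraries, while the gamma C sum followed the line more than the treatment.

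Pcdhb16 had the smallest p of the beta genes. Its levels were 2.5, 1.51 and 0.967 CPM with DMSO, 2.66, 1.72 and 1.44 with Crizotinib, 4.05, 2.15 and 2.14 with PD173074, and 9.17, 5.01 and 6.64 with the combination. The combination libraries all lay above every other library. The log2 fold change was 2.06 ± 0.47 without the block (edgeR, adjusted p = 0.0193) and 2.09 ± 0.23 with it (adjusted p = 6e-05). Pcdhb17, the most abundant beta gene per kilobase, read 3.59, 2.76 and 0.967 CPM with DMSO, 2.94, 3.1 and 1.08 with Crizotinib, 5.08, 3.22 and 3.42 with PD173074, and 11.1, 8.77 and 8.15 with the combination. These groups did not overlap either, and the change was 1.93 ± 0.54 (log2, edgeR unpaired, adjusted p = 0.0389). Pcdhb9 was lower, at 0.234, 0.132 and 0.207 CPM with DMSO, 0.137, 0.726 and 0.144 with Crizotinib, 0.363, 0.429 and 0.142 with PD173074, and 1.28, 2.51 and 1.36 with the combination. It had the largest log2 fold change among the tested members, 3.12 ± 0.75 without the block (edgeR, adjusted p = 0.0220), from a DMSO level near that of 2 or 3 counts per library. Pcdhb9 passed the filter only through the combination libraries, where it was high, so its rank and p are not free of that selection.

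Neighbouring beta genes were called by edgeR with the block and not without it. Pcdhb22 stood at 3.9, 2.04 and 0.622 CPM with DMSO, 3.07, 2.84 and 0.431 with Crizotinib, 5.2, 2.5 and 2.21 with PD173074 and 9.73, 5.64 and 4.75 with the combination. Pcdhb21 had 1.95, 0.921 and 0.345 CPM with DMSO, 1.23, 1.19 and 0.144 with Crizotinib, 1.51, 1.22 and 0.997 with PD173074 and 4.17, 3.07 and 2.26 with the combination. Pcdhb20 had 1.56, 0.460 and 0.553 CPM with DMSO, 1.02, 0.660 and 0.288 with Crizotinib, 1.33, 0.716 and 0.925 with PD173074 and 4.22, 1.94 and 2.11 with the combination. In each of these 3 genes the lowest combination library exceeded the highest DMSO library. The log2 fold changes were 1.77 ± 0.39 for Pcdhb22, 1.68 ± 0.41 for Pcdhb21 and 1.73 ± 0.31 for Pcdhb20 (edgeR with the block, adjusted p = 0.00329, 0.00565 and 0.00109). Without the block their adjusted p was 0.213, 0.208 and 0.106 by edgeR, and unpaired DESeq2 called Pcdhb20 (adjusted p = 0.0481). Pcdhb21 and Pcdhb22 overlap in the annotation on 1 strand, so reads there may have been split or dropped.

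Further beta genes were low and were higher than DMSO in each line. Pcdhb5 had 0.625, 1.71 and 0.345 CPM with DMSO, 0.410, 1.98 and 0.359 with Crizotinib, 0.544, 2.43 and 1.28 with PD173074, and 1.5, 5.33 and 2.87 with the combination. Pcdhb18 had 1.09, 0.658 and 0.0691 CPM with DMSO, 0.820, 0.726 and 0.288 with Crizotinib, 0.786, 1.0 and 1.64 with PD173074, and 1.89, 3.32 and 1.89 with the combination. The combination and DMSO libraries overlapped across lines in Pcdhb5, with A1129 highest throughout, and did not overlap in Pcdhb18. Pcdhb19 had 0.703, 0.526 and 0.0691 CPM with DMSO, 0.888, 0.924 and 0.0719 with Crizotinib, 0.786, 0.859 and 0.214 with PD173074, and 1.78, 2.19 and 1.21 with the combination. Pcdhb7 had 0.234, 0.526 and 0.276 CPM with DMSO, 0.0683, 0.660 and 0.647 with Crizotinib, 0.604, 0.716 and 2.06 with PD173074, and 1.61, 1.07 and 2.79 with the combination. The combination libraries of both genes lay above their DMSO libraries. EdgeR with the block gave log2 fold changes of 1.91 ± 0.37 for Pcdhb5, 2.0 ± 0.59 for Pcdhb18, 2.11 ± 0.46 for Pcdhb19 and 2.34 ± 0.57 for Pcdhb7 (adjusted p = 0.00168, 0.0150, 0.00338 and 0.00573). Their unpaired adjusted p was 0.205, 0.125, 0.195 and 0.0832. Pcdhb15 was the tested beta gene not called by either fit, with 0.546, 0.329 and 0.0691 CPM with DMSO and 1.06, 0.0627 and 0.830 with the combination.

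**Figure D4:**
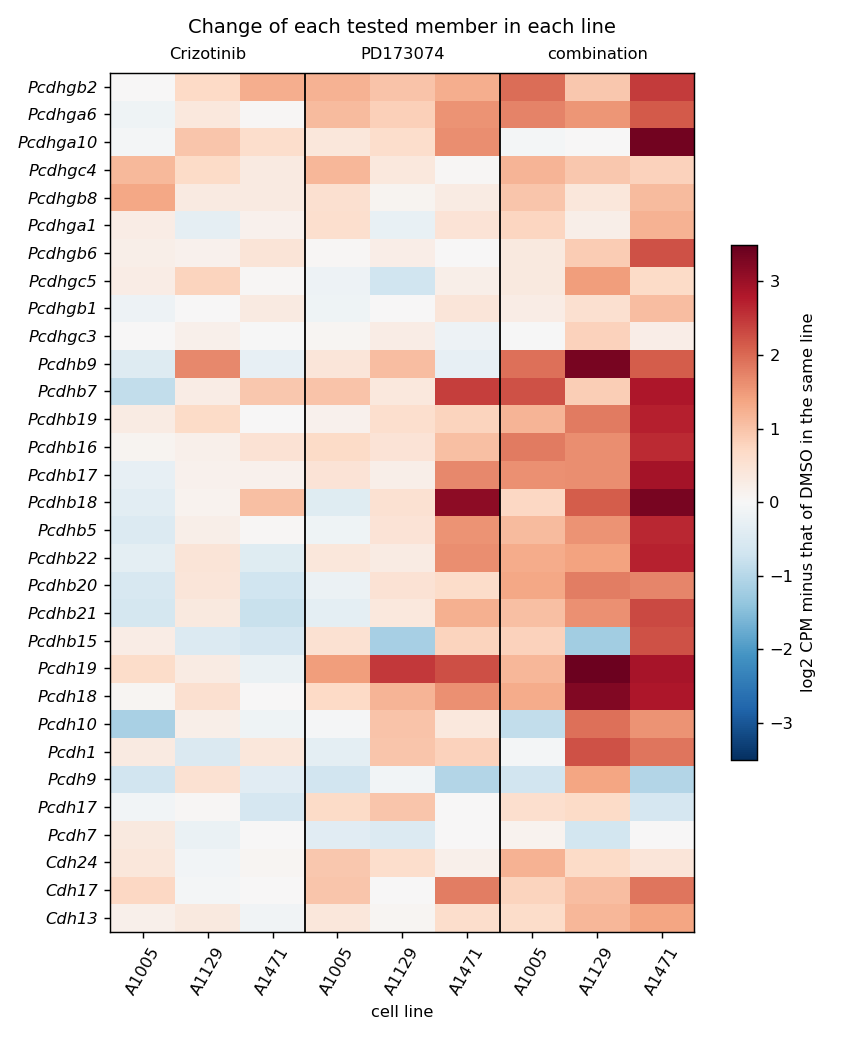
Colour shows the log2 CPM (prior count 2) of each tested member in an inhibitor library minus that of DMSO in the same line, with 9 columns for 3 treatments and 3 lines, red for higher and blue for lower. The combination columns are red for 23 of 31 members in all 3 lines, the PD173074 columns for 17 and the Crizotinib columns for 6.

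In the gamma cluster the A and B genes were summed apart from the C genes. The 19 A and B genes summed to 21.2, 7.23 and 9.88 CPM with DMSO, 23.1, 7.73 and 12.4 with Crizotinib, 24.5, 9.16 and 15.5 with PD173074, and 30.4, 13.7 and 31.2 with the combination, 1.43 to 3.15 times DMSO of the same line. The 3 C genes, nearly all Pcdhgc3, summed to 146, 119 and 347 CPM with DMSO and 145, 209 and 411 with the combination, 0.993 to 1.75 times. These ranges of ratios overlap, and their difference was not tested. Of 10 gamma genes tested, 1 was called without the block and 5 with it, all higher, against 6.1% and 28.6% of all genes.

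Pcdhga6 had the smallest unpaired p of all members and little spread between lines. It read 0.859, 0.789 and 0.553 CPM with DMSO, 0.752, 1.06 and 0.575 with Crizotinib, 1.99, 1.5 and 1.92 with PD173074, and 3.17, 2.57 and 2.94 with the combination. Neither the combination nor the PD173074 libraries overlapped those of DMSO. The log2 fold change in the combination was 1.97 ± 0.36 without the block (edgeR, adjusted p = 0.00671) and 1.97 ± 0.29 with it (adjusted p = 0.000332). Without A1129 or A1471 the unpaired adjusted p was 0.0807 and 0.123.

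The other called gamma genes were lower or more uneven. Pcdhga1 had 2.34, 0.197 and 1.86 CPM with DMSO, 2.8, 0.132 and 2.08 with Crizotinib, 3.63, 0.143 and 2.63 with PD173074, and 4.0, 0.251 and 4.53 with the combination. Pcdhgc4 had 0.390, 0.526 and 1.31 CPM with DMSO, 1.02, 0.924 and 1.65 with Crizotinib, 1.03, 0.716 and 1.35 with PD173074, and 1.06, 1.13 and 2.41 with the combination. A1129 had almost no Pcdhga1 in any treatment, and A1471 was the highest line for Pcdhgc4. Pcdhgb2 had 0, 0.395 and 0.0691 CPM with DMSO, 0, 0.726 and 0.359 with Crizotinib, 0.181, 0.930 and 0.356 with PD173074, and 0.389, 0.877 and 0.981 with the combination. Pcdhgb8 had 0.0781, 0.395 and 0.898 CPM with DMSO, 0.410, 0.528 and 1.15 with Crizotinib, 0.181, 0.429 and 1.14 with PD173074, and 0.278, 0.564 and 2.11 with the combination. Treatments overlapped across lines in both. The log2 fold changes by edgeR with the block were 0.96 ± 0.27 for Pcdhga1, 1.04 ± 0.31 for Pcdhgc4, 2.35 ± 0.69 for Pcdhgb2 and 1.02 ± 0.39 for Pcdhgb8 (adjusted p = 0.0113, 0.0149, 0.0155 and 0.0472). Without the block edgeR gave adjusted p of 0.697, 0.262, 0.302 and 0.533. With a line left out, Pcdhgc4 and Pcdhgb8 were called in none of the blocked fits, and Pcdhga1 and Pcdhgb2 in 1 each. Pcdhgb2 was not tested without A1129. It passed the filter only through the combination libraries, so its p is not free of that selection.

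Of the members not called in the combination by either fit, the 5 most abundant per kilobase were Pcdhgc3, Pcdhgb6, Pcdhgb1, Pcdhgc5 and Pcdh7. Pcdhgc3 stood at 143, 118 and 337 CPM with DMSO, 143, 134 and 332 with Crizotinib, 150, 141 and 295 with PD173074, and 141, 206 and 394 with the combination. Its log2 fold change was 0.34 ± 0.14 with the block (edgeR, adjusted p = 0.0652). A1129 was higher in the combination, and A1005 was not. Pcdhgb6 had 10.8, 4.47 and 0.0691 CPM with DMSO and 13.7, 8.4 and 0.830 with the combination, with an adjusted p of 0.0580 by edgeR with the block. Pcdhgb1 had 3.2, 0 and 4.63 CPM with DMSO and 3.84, 0.0627 and 9.96 with the combination (adjusted p = 0.0525 by the same fit). Pcdhgc5 had 2.42, 0.789 and 9.19 CPM with DMSO and 3.11, 2.38 and 14.6 with the combination (adjusted p = 0.0505). These 3 lay close to the threshold and were higher in the combination in all 3 lines. Pcdh7, a delta-1 protocadherin, had 17.3, 1.64 and 0 CPM with DMSO and 19, 1.0 and 0 with the combination, a log2 fold change of -0.15 ± 0.27 (adjusted p = 0.679).

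The 11 members that failed the filter had 31 to 88 counts each over 12 libraries. Pcdhb4 had no count in the 3 DMSO libraries and 8, 7 and 11 counts in those of the combination. Against a floor of 3 counts over the DMSO group its CPM was 8.05-fold higher, a figure without counting error on the combination side. Pcdh12, a protocadherin of endothelial cells, had 1, 1 and 0 counts in the DMSO libraries and 6, 12 and 12 in the combination. Pcdhb4 had 26 of its 37 counts in the combination libraries, and Pcdh12 had 30 counts there. Both reached the minimum of 30 counts only through those libraries, so these differences are not free of that selection. Both were named after their values had been seen, and neither was tested.

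For Crizotinib alone no member passed the test. EdgeR called 0 of 31 with and without the block, as it did 0.0% of all genes in both fits. DESeq2 called 0 members, and 0 members had an unadjusted p under 0.05 in the unpaired edgeR fit. Log2 fold changes ran from -0.37 to 1.16 with a median of 0.14, and 6 members were higher in each line, against 17.9% of all genes.

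PD173074 alone gave 1 call. In the unpaired fit edgeR called 0 members, as it did 0.0% of all genes, with 1 member at an unadjusted p under 0.05, and DESeq2 called 0. With the block Pcdh19 was called, higher by 2.29 ± 0.38 on the log2 scale (edgeR, adjusted p = 0.0165), against 1.62% of all genes called higher. It was higher in 3 of 3 lines, by 1.46, 2.48 and 2.25 on the log2 scale. Pcdh18 was also higher in each line, at 1.21 ± 0.33 with the block, but its adjusted p was 0.0954 (edgeR). The median over the tested members was 0.54, and 17 were higher in each line, against 24.1% of all genes.

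Adding PD173074 to Crizotinib, the comparison of the combination with Crizotinib, gave 3 calls unpaired (Pcdhb16, Pcdhb17 and Pcdhga6) and 17 with the block, all higher, against 5.4% and 27.4% of all genes. The 17 were the beta genes Pcdhb5, Pcdhb7, Pcdhb9, Pcdhb16, Pcdhb17, Pcdhb18, Pcdhb19, Pcdhb20, Pcdhb21 and Pcdhb22, with Pcdhga1, Pcdhga6, Pcdh10, Pcdh18, Pcdh19, Cdh13 and Cdh24. Their log2 fold changes by edgeR with the block ran from 0.65 ± 0.21 in Cdh24 (adjusted p = 0.0216) to 2.7 ± 0.37 in Pcdh19 (adjusted p = 0.000232). Pcdh18 was 2.35 ± 0.33 and Pcdhb16 1.85 ± 0.23 higher on this scale. DESeq2 called 8 of the 41 members it tested higher, against 9.65% of its 14307 genes with an adjusted p. This comparison shares its combination libraries with the one against DMSO.

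Adding Crizotinib to PD173074, the comparison of the combination with PD173074, gave 0 calls unpaired by edgeR, against 0.838% of all genes called higher. In that fit 4 members had an unadjusted p under 0.05. DESeq2 called 2 of the 41 members it tested, against 3.92% of its 13209 genes with an adjusted p. With the block 11 members were called higher, against 19.6% of all genes. They were Pcdhb5, Pcdhb9, Pcdhb16, Pcdhb17, Pcdhb19, Pcdhb20, Pcdhb21, Pcdhb22, Pcdhgc5, Pcdh18 and Cdh13. Pcdhb9, which passed the filter only through the combination libraries, showed the largest of these changes, 2.4 ± 0.46 (log2, edgeR with the block, adjusted p = 0.00282). Cdh13 showed the smallest, 0.71 ± 0.19 (same fit, adjusted p = 0.0142). Pcdh19, called with PD173074 alone, was not among them. Without A1129 the blocked fit called 3 members, against 5.93% of all genes higher.

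An excess of the combination over both single inhibitors added up on the log2 scale was called for 0 members by the unpaired fit of edgeR. That fit had 0 members at an unadjusted p under 0.05 and called 0.00723% of all genes above the sum. DESeq2 also called 0 members, against 48 of the 13836 genes tested. With the block Pcdhb16 and Pcdhb20 were called above it, against 5.46% of all genes. Pcdhb16 departed by 1.1 ± 0.33 (adjusted p = 0.0475) and Pcdhb20 by 1.76 ± 0.48 (adjusted p = 0.0342), and both were above the sum in 3 of 3 lines. These 2 of 31 are a share near that of all genes.

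Most of the tested members differed in level between the lines, as did most genes. An edgeR test of the line, with the treatment in the model, called 27 of 31 tested members, against 73.9% of all genes, so the share of members called was 87.1%. The 4 libraries of a line are 4 treatments of 1 culture model, and a p here compares these 3 lines only. In the beta cluster 8 of 11 were called (72.7%), near the share of all genes. The 4 members not called were the beta genes Pcdhb7, Pcdhb9 and Pcdhb18 and the gamma gene Pcdhga6.

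Several members were on in some lines and at or near 0 in others. Pcdh7 had 13 to 22 CPM in A1005, 1.0 to 1.64 in A1129 and no count in 4 libraries of A1471, which allows up to 0.0533 CPM (adjusted p = 6.9e-07, edgeR). Pcdhgb1 had 2.8 to 3.84 CPM in A1005 and 4.63 to 9.96 in A1471, but 1 count in all of A1129 (adjusted p = 3.45e-07, edgeR). The reverse held for Pcdh9, a delta-1 protocadherin, with 265 counts in A1129 at 2.65 to 7.65 CPM, 1 count in A1005 and 3 in A1471. Pcdh17, a delta-2 member, had 178 counts in A1005, 163 in A1129 and 2 in A1471. Pcdh7 in A1471 was at 0 counts in all 4 treatments, the combination included.

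The gamma genes set the lines apart in the same manner. Pcdhgb6 read 10.8 to 13.7 CPM in A1005, 4.47 to 8.4 in A1129 and 0.0691 to 0.830 in A1471. Pcdhga1 read 2.34 to 4.0 CPM in A1005, 0.132 to 0.251 in A1129 and 1.86 to 4.53 in A1471. Pcdhgc5 was highest in A1471, at 9.19 to 14.6 CPM, and lowest in A1129, at 0.429 to 2.38. The C gene Pcdhgc3 was 1.22 higher in A1471 than in A1005 on the log2 scale and 0.02 higher in A1129 than in A1005. Of the 10 members with the smallest p, 5 were gamma genes and none was a beta gene. The remaining 2 were Cdh13, lowest in A1471 (27.6 to 77.2 CPM), and Pcdh19, lowest in A1005 (0.703 to 2.18 CPM).

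**Figure D5:**
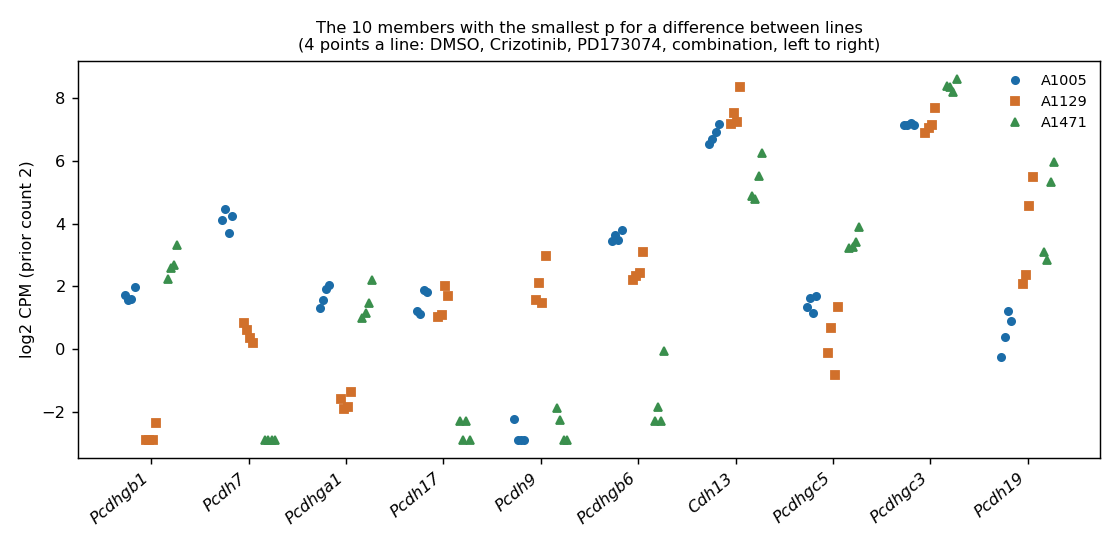
Log2 CPM (prior count 2) of the 10 members with the smallest p for a difference between lines, with 4 points for each line, 1 per treatment. Pcdh7 lies at the bottom in A1471, Pcdhgb1 and Pcdhga1 in A1129, Pcdh9 in A1005 and A1471, and the highest and lowest line of every gene shown do not overlap.

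The partners of the cadherins were given by lists. Among 13 tested catenins and junction partners, 1 was called higher and 0 lower in the combination against DMSO by the unpaired fit, and 5 higher and 2 lower with the block. Among all genes the unpaired fit called 6.1% higher, a share near this 1 of 13, and 8.28% lower. The blocked fit called 28.6% of all genes higher and 26.2% lower. Ctnnb1 (beta-catenin) stood at 903, 830 and 667 CPM with DMSO and 1060, 1606 and 989 with the combination, a log2 fold change of 0.59 with the block (edgeR, adjusted p = 0.00736) and 0.61 ± 0.22 without it (adjusted p = 0.103). Ctnnd1 (p120-catenin) had 56.0, 35.1 and 31.3 CPM with DMSO and 68.5, 53.5 and 45.6 with the combination (edgeR, adjusted p = 0.00224 with the block and 0.387 without). Ctnna1 (alpha-catenin) had 500, 412 and 589 against 503, 531 and 749 CPM and was not called by either fit. Arvcf, a p120 relative, was the gene called, with 4.37, 6.64 and 2.9 CPM with DMSO and 20.5, 38.7 and 23.1 with the combination, 2.56 ± 0.56 higher on the log2 scale (edgeR unpaired, adjusted p = 0.0149).

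Of 9 tested genes of other cadherin families (Fat, Dchs, Celsr and relatives), the unpaired fit called Fat1, a giant cadherin of planar polarity and growth control, at 1.18 ± 0.27 higher (log2, edgeR, adjusted p = 0.0191), and the block called 5, all higher. These calls stand beside 6.1% of all genes called higher unpaired and 28.6% with the block. Among 10 tested repressors and activators of Cdh1, 3 were called lower and 0 higher without the block, and 2 higher and 4 lower with it. The share of all genes called lower was 8.28% without the block and 26.2% with it, and 28.6% were higher with it. The 3 called lower without the block were the EMT factors Twist1, by -1.09 ± 0.15 (adjusted p = 0.00156), and Twist2, by -0.82 ± 0.24 (adjusted p = 0.0466), and the epithelial factor Grhl2, by -2.95 ± 0.78 (adjusted p = 0.0328), all on the log2 scale by edgeR. The 2 called higher with the block were the repressors Zeb2, by 0.51 ± 0.14 (adjusted p = 0.0133), and Tcf4, by 0.53 ± 0.12 (adjusted p = 0.00334), also by edgeR on the log2 scale. With the block the repressor Snai1 was called lower as well, by -0.74 ± 0.16 (log2, edgeR, adjusted p = 0.00259). Of 12 tested cadherin-processing proteases, 3 were called higher without the block (Adam15, Mmp14 and Aph1b) and 0 lower, and 8 higher and 1 lower with it. For all genes the shares called higher were 6.1% without the block and 28.6% with it, and 26.2% were lower with it.

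The 13 chromatin factors of the protocadherin clusters, all tested, gave 0 calls higher and 1 lower without the block, and 2 higher and 6 lower with it. The unpaired 1 of 13 lower is near the 8.28% of all genes called lower in that fit. Of all genes, 28.6% were called higher and 26.2% lower with the block. Smc3, a cohesin subunit, was the unpaired call, with 211, 178 and 293 CPM with DMSO and 119, 124 and 133 with the combination, -0.86 ± 0.22 on the log2 scale (edgeR, adjusted p = 0.0279). The list's median was -0.23. Whether this bears on the clusters was not tested. Of the epithelial, mesenchymal, endothelial, leukocyte and skeletal muscle markers, Twist1 alone was called by the unpaired edgeR fit in the combination. With the block, Krt18 (-1.0 log2, adjusted p = 0.000225), Krt19 (-2.69, adjusted p = 0.000542) and Prrx1 (-0.92, adjusted p = 0.00154) were also lower. Sparc (2.02, adjusted p = 0.000552) and the macrophage marker Cd68 (0.82, adjusted p = 0.00603) were higher, all by edgeR. The other tested epithelial markers, Krt8 (0.46, adjusted p = 0.381) and Cldn3 (0.23, adjusted p = 0.738), were not called by that fit. Krt19 fell from 44.0 to 6.11 CPM in A1005 and was at most 0.144 CPM in the other lines. Prrx1 was at most 0.445 CPM in A1005. Cd68 was the only leukocyte marker called. Ptprc was not (0.09 log2, edgeR with the block, adjusted p = 0.881) and was near 0 outside A1005. Csf1r, also a macrophage marker, was too low to test, with a mean of 0.119 CPM with DMSO and 0.046 with the combination. The 4 leukocyte markers summed to 4.47 to 31.5 CPM with DMSO and 8.3 to 42.0 CPM with the combination. Their part in the protocadherin levels was not tested.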

How the data were processed

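Reads from an Illumina sequencer were aligned by the authors with STAR to mm10, and the deposited table holds raw counts per Ensembl gene for 12 libraries. The submitters' notes also list bcl2fastq and HTSeq; versions, strand use and annotation release are not given in the sources used here. Exon lengths and coordinates came from GENCODE M21 (GRCm38), which held 55480 of 55573 genes. Low genes were removed by filterByExpr (count 10, total 15), and libraries were scaled by TMM and tested by edgeR 4.0.16 (quasi-likelihood, R 4.3.3) over all 12 libraries with treatment as the term, since the study's methods state an unpaired analysis. Benjamini-Hochberg adjustment ran over all 13836 genes tested, with a threshold of 0.05. The labels give the cell line of each library, so libraries of a line are paired: deviations of same-line libraries from the treatment means correlated at 0.766 to 0.962 across genes (18 pairs). The fit with the line as a block is therefore printed where it changes a call. Log2 CPM per library used a prior count of 2. Alternatives were DESeq2 1.42.0, its size factors, no filter, and leaving out each line or treatment. The scripts were tested on simulated counts. Members and lists were chosen with earlier results of these data known. Named were Cdh1 and Cdh2, each member called in the combination against DMSO by either fit, the 5 most abundant per kilobase of those not called, members called elsewhere, the 10 with the smallest p between lines, genes of other lists called in the unpaired fit, and 3 catenins. P-values of the unpaired fits are set against the spread between these 3 lines. Those of the blocked fit and of the test between lines are set against the spread left after line and treatment are both fitted. In all of them 1 library stood for each line and treatment. The result of 1 marker list is not reported here.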

Additional observations from a re-analysis of the deposited data

Results flagged for a closer look

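Pcdhb16 and Pcdhb20 had a combination effect that differed from the sum of the single inhibitors, which was tested by the interaction term of edgeR with a block for the cell line. The departure was 1.10 on the log2 scale for Pcdhb16 (adjusted p = 0.0475) and 1.76 for Pcdhb20 (adjusted p = 0.0342), above the sum in 3 of 3 lines for both. Neither was called without the block (adjusted p = 0.737 and 0.585). With the block, 5.46% of all genes were called above the sum, a share near that of the members (2 of 31).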

How the results depend on the processing

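The number of members called depended most on the pairing. With a block for the cell line it went from 4 to 22 in the combination against DMSO, from 3 to 17 against Crizotinib, from 0 to 11 against PD173074, from 0 to 1 with PD173074 alone and from 0 to 2 in the departure from additivity. DESeq2 called 9, 8 and 2 of 41 members in the first 3 of these, against 9.92%, 9.65% and 3.92% of all genes higher. With no filter on low counts 2 and 0 of 42 members were called in the first 2, and the share of all genes is not given. Leaving out each line gave 0 to 4 calls against DMSO, 0 to 4 against Crizotinib and 0 elsewhere, the 0 arising without A1129 and without A1471. For these unpaired fits against Crizotinib the share of all genes is not given. Calls with Crizotinib were 0 under every setting. Chosen after seeing the data, the blocked fit without each line called 13 to 20 against DMSO, 13 to 17 against Crizotinib (1 of them lower, Cdh23, without A1129 and without A1471) and 3 to 9 against PD173074, where it called 19.3% to 25.8%, 18.3% to 24.5% and 5.93% to 16.0% of all genes higher. Of the 22 against DMSO, 11 were called whichever line was left out and 3 (Pcdhgc4, Cdh17 and Pcdhgb8) under none. Size factors kept every single-member call. The change of Pcdh7 was 0.08 and turned negative with the block (-0.15), and ran from -0.68 (without A1005) to 0.12 with a line left out, and that of Pcdhga10 was 0.50, 1.12 with the block, and -0.07 without A1471 and 0.50 without A1129, none of them called. Calls between lines ran from 22 (of 31 without the Crizotinib libraries and of 29 without those of PD173074) to 36 of 42 with no filter. The main fit called 27 of 31, against 73.9% of all genes, and the share of all genes under the other settings is not given. Depth limits members under about 10 counts per library, Cdh1 and Cdh2 above all.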
